A study of Mus musculus with 6 samples.

Results

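The family of miR-15, miR-16 and miR-322 is a set of microRNAs (miRNAs, RNAs of about the length of a short primer that guide repression of mRNAs) that share the same seed, the bases 2 to 8 by which a miRNA pairs with its targets. The members were the 7 genes named for this description that the deposited small-RNA table lists, out of 898 miRNA genes in all, and they were picked by name, with earlier results of these data known. They were mir-15a, mir-15b, mir-16-1, mir-16-2, mir-322 and mir-497, with mir-503, the partner of mir-322 in a cluster on the X chromosome. All 7 were above 0 in both groups. The libraries came from mouse E14Tg2a embryonic stem cells (ESCs), a pluripotent line, at passages 37 to 40. In one group of 3 libraries the cells grew with leukemia inhibitory factor (LIF), the cytokine that maintains pluripotency, and the other group of 3 was from the same line after withdrawal of LIF and 48 hours in 1 µM retinoic acid (RA), which the study calls neuronal cells (NCs). The comparison shows which members differ in level between the pluripotent state and early RA-induced differentiation. The labels name 3 replicate samples for each group and do not say that they came from separate passages, so the p-values measure the spread between these samples.

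Background on the family helps in reading the values. miRNAs with this seed repress D-type cyclins, cyclin E and other drivers of entry into S phase, and the anti-apoptotic Bcl2, and they are known as brakes of the cell cycle. mir-15a and mir-16-1 lie within Dleu2, a locus known for its loss in chronic lymphocytic leukemia. mir-322, the mouse counterpart of human miR-424, and mir-503 repress Cdc25a, the phosphatase that activates cyclin-dependent kinases. ESCs have a short G1 phase that lengthens as they leave pluripotency.

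The mature sequences show what joins the members and what sets them apart, and are given as RefSeq holds them (GRCm38.p6), from the 5′ arm, 5′ to 3′, with the seed in capitals.
mir-15a: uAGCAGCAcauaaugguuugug
mir-15b: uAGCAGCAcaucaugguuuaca
mir-16-1 and mir-16-2: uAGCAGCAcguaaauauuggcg
mir-322: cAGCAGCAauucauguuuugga
mir-497: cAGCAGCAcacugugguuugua
mir-503: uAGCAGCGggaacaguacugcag

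Counted from 1 at the 5′ end, mir-322 and mir-497 differ from mir-15a by U1C, just outside the seed, and mir-503 differs by A8G, at the last seed base. mir-503 is therefore the member with its own seed, and its seed was carried by 1 mature name of the 1679 in the RefSeq set, its own, against 10 for the seed of the other members. Over the whole mature sequence mir-15a and mir-15b were the most alike of the distinct members, with 18 of 22 bases identical, and mir-503 and mir-497 the least, with 10 of 22. mir-195a, the cluster partner of mir-497, had the seed too and differed from mir-16-1 at 2 of 21 aligned bases, G10A and U11G.

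mir-16-1 and mir-16-2 give an identical mature sequence of 22 bases from different hairpins, printed here with the mature part in capitals because it decides how far their counts can be told apart.
mir-16-1: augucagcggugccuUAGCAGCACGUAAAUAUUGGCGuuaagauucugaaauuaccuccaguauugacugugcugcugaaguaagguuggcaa
mir-16-2: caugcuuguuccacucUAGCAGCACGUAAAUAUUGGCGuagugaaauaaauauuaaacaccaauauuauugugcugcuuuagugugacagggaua

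The members lie at 4 loci of mouse build GRCm38 (GENCODE M21), the build the submitters' processing notes name as mm10. mir-15a (chromosome 14, 61632027 to 61632110, minus strand) is in an intron of Dleu2, a noncoding RNA gene. mir-16-1 (chromosome 14, 61631880 to 61631972, minus strand) is 54 bases away and overlaps an annotated exon of the same gene. mir-15b (chromosome 3, 69009772 to 69009835, plus strand) and mir-16-2 (chromosome 3, 69009902 to 69009996, plus strand) are 66 bases apart in an intron of Smc4, which encodes a condensin subunit. mir-322 (chromosome X, 53054255 to 53054349) and mir-503 (chromosome X, 53053984 to 53054054) are 200 bases apart on the minus strand. In RefSeq both lie within the noncoding gene C430049B03Rik, while GENCODE M21 has no host for them. mir-497 (chromosome 11, 70234717 to 70234800, plus strand) is 241 bases from mir-195a and overlaps mir-497b on the opposite strand.

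The deposited table gave the mean of each group in normalized counts (reads over the size factor of their library) and no value for single libraries or for the 5′ and 3′ arms of a hairpin. Because these means carry 10 decimals, the whole reads of each library could be recovered by enumeration, and reads were recovered for all 7 members in all 6 libraries. Libraries carry no replicate number and are named A, B and C, from the largest size factor in a group to the smallest. The recovered reads of each library, which leave out the most abundant miRNAs, ranged from 108841 to 432445, and size factors differed by up to 4.21-fold. Library C, the shallowest of each group, stood apart. Over 319 tested miRNAs the log2 difference between C and the mean of A and B had an SD of 1.34 among ESC libraries and of 1.18 among NC libraries. Between A and B the SD was 0.40 for ESCs and 0.31 for NCs. Fits of the tested members are therefore given with and without C. Medians over members, group means and tests of ratios use all 6 libraries. In these bulk samples fewer cells of a type and less RNA per cell cannot be told apart. The 12 ESC markers of the miR-290 and miR-302 clusters summed to 137809 normalized counts in ESCs and 31426 in NCs (authors' means). Of the neuronal markers, the 3 mir-9 copies had authors' means of 420 to 423 in ESCs and 767 to 768 in NCs. They were not called (adjusted p-value 0.0779 each in limma-voom). The 3 mir-124 copies, which define neurons, had 2.09 to 2.70 in ESCs. In NCs these had 5.19 to 6.02, near the 3.17 that 3 reads in each NC library give. The 4 muscle markers were listed at 0 in both groups, and of the 2 endoderm markers 1 reached 0.41 in ESCs. The 2 blood markers summed to 926 in ESCs and 359 in NCs, and the 5 mesenchyme markers, of which 4 were above 0, to 151 and 161. Among the latter mir-199a-1 and mir-199a-2 were called higher in NCs (log2 FC 1.23 and 1.29, adjusted p-value 0.0345 each in limma-voom), mir-214 had authors' means of 1.48 and 10.3, and mir-145a, not called, had 113 and 67.1. The part of these cell types in the results was not tested.

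Across the family, mir-322 was the member called higher in NCs over all 6 libraries. In the other members the groups overlapped, in all but mir-15b through library C alone. In a limma-voom fit of all 6 libraries, which weights each log2 value by its expected precision, 1 of the 6 members tested passed an adjusted p-value of 0.05, higher in NCs, and 0 were called lower. Over all 319 miRNAs of that fit 15.7% were called, 10.0% higher and 5.64% lower in NCs. The called share of the members was thus close to that of all miRNAs. Of the 50 calls 32 were higher and 18 lower, against 20 higher and 36 lower of 56 calls at equal totals and 48 higher and 9 lower of 57 calls at equal totals without mir-10a. mir-503 had too few reads for the filter of at least 10 reads in 3 or more libraries and entered only the fit without that filter. The median log2 fold change (FC) of the 6 tested members was 0.21, against -0.05 over all tested miRNAs. On the authors' means with a pseudocount of 1, the median over all 7 members was 0.25 and that over all 634 detected miRNAs was 0.07. The sign of the members' median followed the scaling, with -0.23 at equal totals and 0.69 at equal totals without mir-10a.

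**Figure D1:**
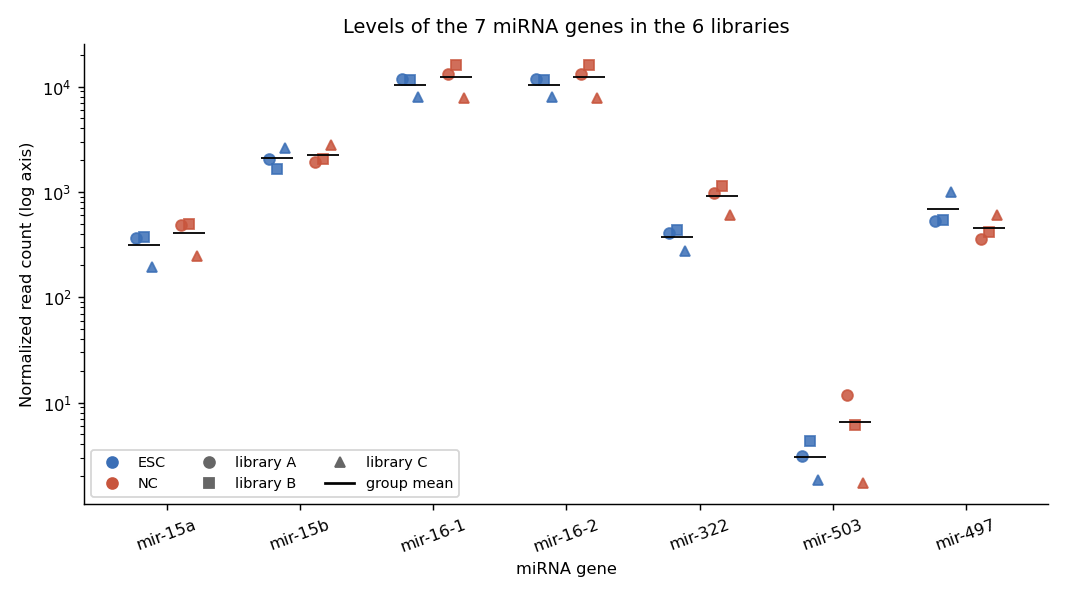
Normalized read counts (log axis) of each member in the 3 ESC libraries (blue) and 3 NC libraries (red), with library A as circles, B as squares, C as triangles and the group mean as a line. The groups of mir-322 do not overlap (272 to 432 against 607 to 1147), and library C lies below A and B for mir-15a, mir-16, mir-322 and mir-503 and above them for mir-15b and mir-497.

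mir-322 was held by 653, 405 and 149 reads in ESC libraries A, B and C and by 2251, 1120 and 355 reads in NC libraries A, B and C. The ESC libraries thus had 403, 432 and 272 normalized counts and the NC libraries 976, 1147 and 607. Every NC library lay above every ESC library, as in 16.9% of the tested miRNAs. Groups that do not overlap, in either direction, were found for 31.0% of them, and mir-322 was the 1 tested member among them. The mean rose from 369 ± 85.1 to 910 ± 276 (SD, n = 3 each), a log2 FC of 1.30 ± 0.35 (SE), or 2.45-fold, with an adjusted p-value of 0.0483 in limma-voom and a 95% interval of the log2 FC from 0.47 to 2.12. This log2 FC ranked 40 of 319 from the highest.

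The call of mir-322 was a narrow one. Leaving out ESC library A brought the limma-voom adjusted p-value to 0.143, leaving out B to 0.0963 and leaving out C to 0.102. Leaving out NC library A brought it to 0.210, leaving out B to 0.194 and leaving out C to 0.0269, and the log2 FC ran from 1.04 to 1.58 over these 6 fits. With the shallowest libraries set apart by a covariate, the log2 FC was 1.27 ± 0.14 (SE) with an adjusted p-value of 2.89e-05 in limma-voom. In the 2 deeper libraries of each group alone it was 1.33 ± 0.14 (SE) with an adjusted p-value of 2.24e-06 in limma-voom, and the shallowest libraries gave 1.15 with a pseudocount of 1 and no test. The shallowest libraries were set apart after these same data showed them to deviate. The p-values of both settings, here and below, can therefore be too small. Equal totals for both groups shift all log2 FCs by -0.48, and equal totals after mir-10a is taken out shift them by 0.44. The log2 FC of mir-322 was then 0.82 (adjusted p-value 0.139 in limma-voom) and 1.73 (adjusted p-value 0.0154 in limma-voom).

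**Figure D2:**
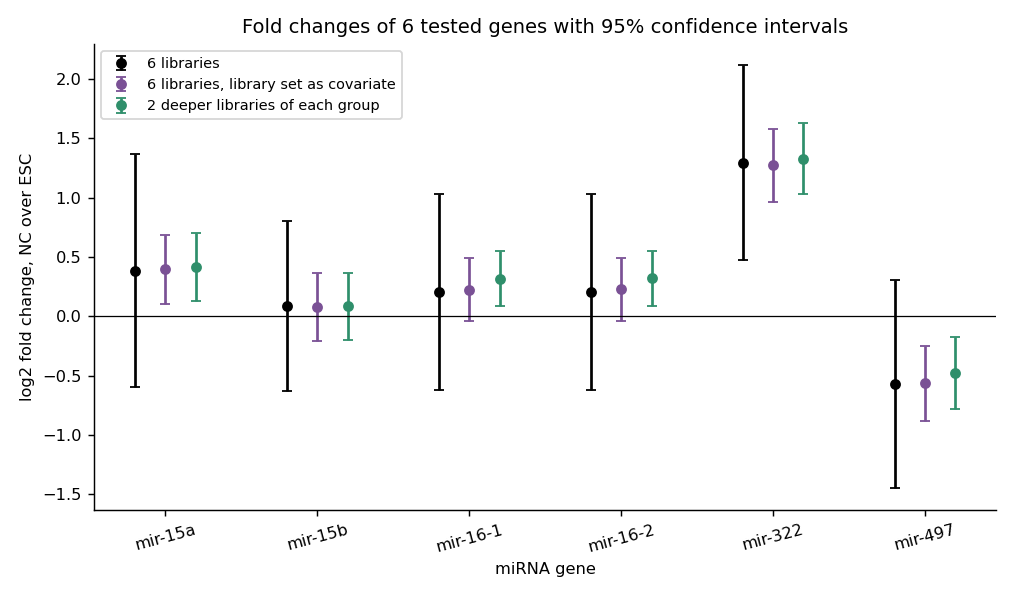
log2 fold change of the 6 tested members, NC over ESC, with 95% confidence intervals from limma-voom on all 6 libraries (black), with the library set as covariate (purple) and on the 2 deeper libraries of each group (green). mir-322 is above 0 in all 3 fits, with estimates from 1.27 to 1.33, mir-15b crosses 0 in all 3, and the intervals narrow once the shallowest libraries are modelled or left out.

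mir-503, the cluster partner of mir-322 with the changed seed, was close to the limit of detection. It had 5, 4 and 1 reads in ESC libraries A, B and C, and 27, 6 and 1 reads in NC libraries A, B and C. Only NC library A held at least 10 reads, and the normalized counts of the groups overlapped (1.83 to 4.27 in ESCs and 1.71 to 11.7 in NCs). The ratio of authors' means was 2.13. With no filter on low reads the limma-voom fit gave mir-503 a log2 FC of 0.93, with a 95% interval from -0.65 to 2.51 and an adjusted p-value of 0.658. With 0.5 read added to each count, mir-322 had 90.1 to 119 reads for each read of mir-503 in ESCs and 81.9 to 237 in NCs. The log2 ratios of the groups overlapped (difference 0.55, exact two-sided permutation p = 0.40, n = 3 each, adjusted p = 0.667 over 8 pairs), a test whose smallest possible p is 0.10.

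mir-16 was the most abundant member by a wide margin. mir-16-1 had normalized counts of 11714, 11551 and 7962 in ESC libraries A, B and C and 13238, 16026 and 7725 in NC libraries A, B and C. The highest and the lowest of the 6 values were both NC libraries, so the ESC values lay inside the NC range. The log2 FC was 0.21 ± 0.35 (SE) with an adjusted p-value of 0.796 in limma-voom, and its 95% interval ran from -0.62 to 1.03. In the deeper libraries alone it was 0.32 (adjusted p-value 0.0223 in limma-voom), and the shallowest libraries gave -0.04. It was not called with the library set as covariate (0.23, adjusted p-value 0.149 in limma-voom). At equal totals the log2 FC was -0.27, and with mir-10a left out of those totals it was 0.65. By authors' mean mir-16-1 ranked 18 of 549 detected miRNAs in ESCs and 17 of 602 in NCs.

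The mir-16 copies could not be measured apart. Their reads differed by 11, 16 and 5 in ESC libraries A, B and C and by 23, 17 and 5 in NC libraries A, B and C, at most 0.148% of their mean. Reads split at random between the copies would differ with an SD of 93.3 to 247 reads. Whether reads of the shared mature RNA were counted at both loci or divided between them is not given in the sources used here. The loci in Dleu2 and in Smc4 thus have no separate value, and mir-16 is counted once wherever members are summed below. These sums, and the size of ratios to mir-16, assume that its reads were counted at both loci. For mir-16-1 in NCs 2 sets of reads gave the deposited mean, and the one within 23 reads of mir-16-2 was used. The other differed from mir-16-2 by up to 12001 reads. The closeness of the copies in the NC libraries is thus partly set by that choice, and the ESC libraries, where 1 set of reads gave each mean, are free of it.

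mir-15a, the neighbour of mir-16-1 in Dleu2, had normalized counts of 364, 373 and 194 in ESC libraries A, B and C and of 490, 495 and 248 in NC libraries A, B and C. The groups overlapped because library C was low in both, at 0.525 and 0.504 of the mean of A and B. Its log2 FC was 0.39 ± 0.41 (SE) with an adjusted p-value of 0.667 in limma-voom and a 95% interval from -0.60 to 1.37. It was called higher in NCs in the 2 deeper libraries of each group (0.42 ± 0.13 SE, adjusted p-value 0.0185 in limma-voom) and with the library set as covariate (0.40 ± 0.13 SE, adjusted p-value 0.0293 in limma-voom). These values are smaller than the shift between scalings. At equal totals the log2 FC was -0.09, and with mir-10a left out of those totals it was 0.83.

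mir-15b, the neighbour of mir-16-2 in Smc4 and otherwise 4 bases from mir-15a, went the other way between libraries. Its normalized counts were 2051, 1647 and 2605 in ESC libraries A, B and C and 1903, 2037 and 2763 in NC libraries A, B and C. Library C was the highest of each group, where for mir-15a it was the lowest, and the groups overlapped. The log2 FC was 0.09 ± 0.30 (SE) with an adjusted p-value of 0.894 in limma-voom, and the 95% interval ran from -0.63 to 0.80. With the library set as covariate the interval narrowed to between -0.20 and 0.37 and mir-15b was still not called. In the 2 deeper libraries of each group the log2 FC was 0.085 (adjusted p-value 0.618 in limma-voom).

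mir-497 was the member with a lower mean in NCs. Its normalized counts were 526, 540 and 1003 in ESC libraries A, B and C and 355, 413 and 600 in NC libraries A, B and C. The groups overlapped through NC library C, and library C was the highest of each group, at 1.88 and 1.56 times the mean of A and B. The log2 FC was -0.57 ± 0.37 (SE) with an adjusted p-value of 0.409 in limma-voom and a 95% interval from -1.45 to 0.31. With the library set as covariate it was called lower in NCs (-0.56 ± 0.14 SE, adjusted p-value 0.00795 in limma-voom) and in the 2 deeper libraries of each group (-0.48 ± 0.14 SE, adjusted p-value 0.0117 in limma-voom). At equal totals the log2 FC was -1.04 (adjusted p-value 0.0865 in limma-voom), and with mir-10a left out of those totals it was -0.13.

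mir-195a, its neighbour on chromosome 11, is not a member of the list but has the seed. Its normalized counts were 618, 592 and 221 in ESC libraries A, B and C and 405, 424 and 168 in NC libraries A, B and C. It was not called in all 6 libraries (log2 FC -0.49, adjusted p-value 0.693 in limma-voom) and was called lower in NCs in the 2 deeper libraries of each group (-0.55 ± 0.13 SE, adjusted p-value 0.00395 in limma-voom) and with the library set as covariate (-0.50 ± 0.13 SE, adjusted p-value 0.0110 in limma-voom). The ratio of mir-497 to mir-195a was 0.851 and 0.912 in ESC libraries A and B and 0.876 and 0.973 in NC libraries A and B, but 4.52 and 3.57 in library C of each group. The pair thus stayed near equal in the deeper libraries of both groups, and in the shallowest library of either group mir-497 exceeded mir-195a several-fold.

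**Figure D3:**
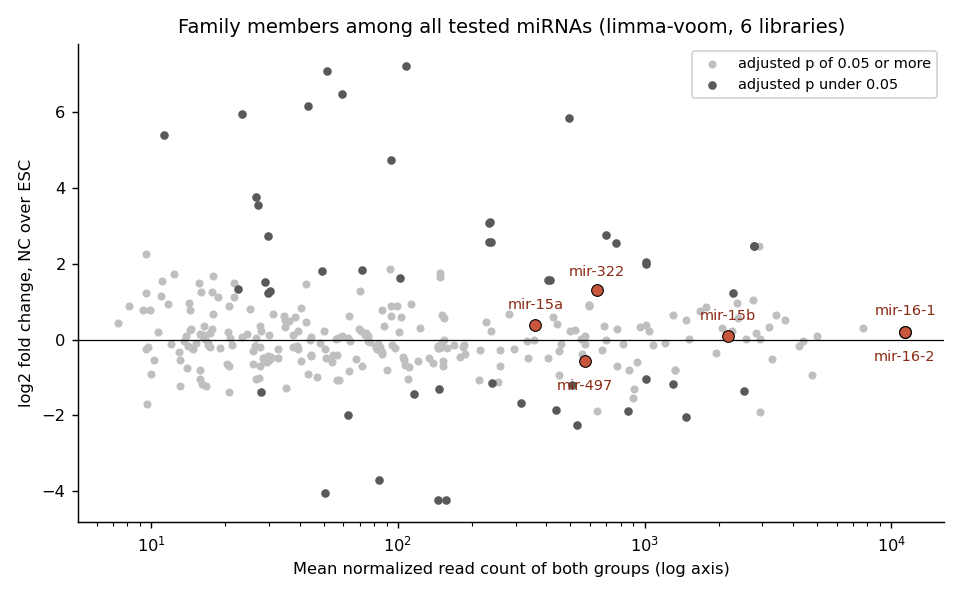
log2 fold change, NC over ESC, of the 319 tested miRNAs against their mean normalized count (log axis), from limma-voom on all 6 libraries, with miRNAs called at an adjusted p-value under 0.05 in dark grey and the 6 tested members in red. mir-322 is the member among the called miRNAs, and the other 5 lie between -0.57 and 0.39.

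The number of members called depended on how library C was treated. With the library set as covariate 3 of the 6 tested members were called (mir-322 and mir-15a higher and mir-497 lower in NCs), where 44.5% of all tested miRNAs were called, 23.5% higher and 21.0% lower. In the 2 deeper libraries of each group 5 were called, both mir-16 copies in addition, where 50.2% of 327 tested miRNAs were called, 28.7% higher and 21.4% lower. The called share of the members under the covariate is thus close to that of all miRNAs, and in the deeper libraries the mir-16 measurement enters the count at both copies. The set of shallowest libraries was defined from the depth and profile of the libraries and not by the labels, which give no batch. Calls under the covariate or in the deeper libraries are thus no independent support for those in all 6 libraries.

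A ratio of 2 members within a library does not depend on how libraries are scaled to each other, and 8 such pairs were compared. mir-322 had 0.0344, 0.0374 and 0.0343 reads for each read of mir-16-1 in ESC libraries A, B and C and 0.0737, 0.0716 and 0.0787 in NC libraries A, B and C. The groups were far apart and the libraries of a group, C included, lay close together. The mean log2 ratio was -4.82 ± 0.07 in ESCs and -3.74 ± 0.07 in NCs (SD, n = 3 each), a 2.11-fold difference. Its exact two-sided permutation p was 0.10, the smallest that 3 against 3 can give, and its adjusted p over the 8 pairs was 0.667, so the test cannot call it. It was the 1 pair of 8 whose groups did not overlap.

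mir-15a and mir-15b were each set against mir-16 too, and the groups overlapped in both ratios. Since reads of mir-16 cannot be assigned to a locus, both are ratios to the joint mir-16 signal and say nothing of the single loci. mir-15a had 0.0311, 0.0324 and 0.0244 reads for each read of mir-16-1 in ESC libraries A, B and C and 0.0370, 0.0309 and 0.0322 in NC libraries A, B and C (exact permutation p = 0.50, n = 3 each). mir-15b had 0.175, 0.143 and 0.328 reads for each read of mir-16-2 in ESC libraries A, B and C and 0.144, 0.127 and 0.358 in NC libraries A, B and C (exact permutation p = 0.80, n = 3 each). Library C raised the latter ratio in both groups by more than the groups differed. For mir-15a over mir-15b the mean log2 ratios were -2.79 ± 0.84 and -2.49 ± 0.85 (SD, n = 3 each, exact permutation p = 0.50).

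Within the family the share of mir-322 was higher in every NC library than in any ESC library, and mir-16 held most of the reads in all 6. Of the reads of the members in each library, with mir-16 counted once, mir-322 took 2.67%, 2.97% and 2.26% in ESC libraries A, B and C and 5.75%, 5.70% and 5.08% in NC libraries A, B and C. The exact 95% binomial intervals, which cover counting error only, reached 3.27% at most in ESCs and 4.58% at least in NCs. mir-16 held 77.8%, 79.4% and 66.1% in ESC libraries A, B and C and 78.0%, 79.6% and 64.7% in NC libraries A, B and C. Its share was thus lower in library C of either group, where mir-15b held 21.6% and 23.1% against 10.1% to 13.6% elsewhere. The shares of members sum to a whole, so a rise of one lowers the others.

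**Figure D4:**
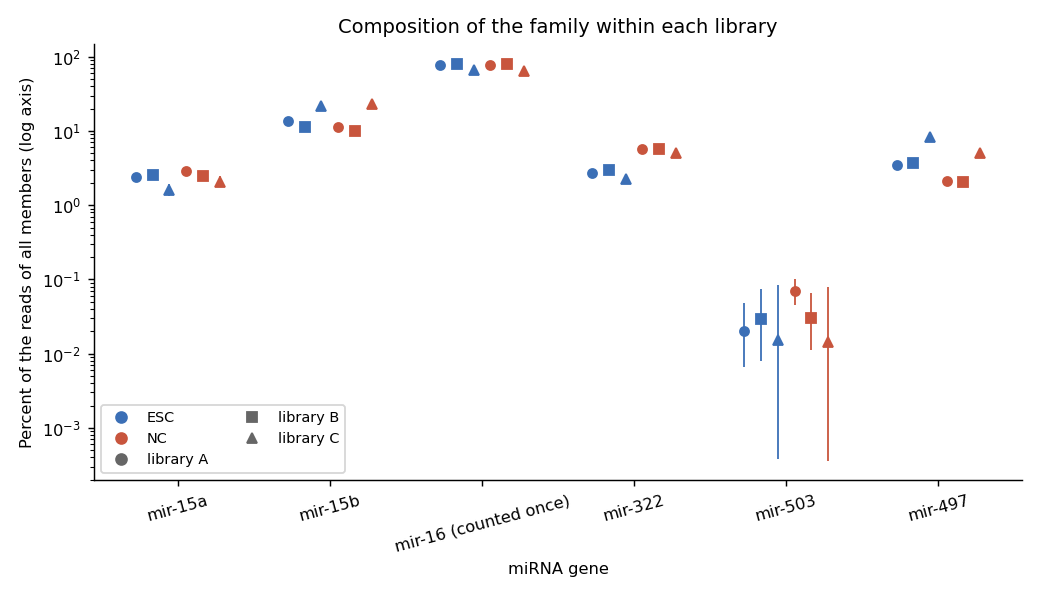
Share of each member in the reads of all members (percent, log axis) in each ESC (blue) and NC (red) library, with exact 95% binomial intervals as bars and library A as circles, B as squares and C as triangles. mir-322 takes 2.26% to 2.97% in ESCs and 5.08% to 5.75% in NCs, and mir-503 stays under 0.07% with wide intervals.

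By authors' mean, which includes library C, the order of levels among members was nearly the same in both groups. The place of mir-497 above mir-15a in NCs rested on library C. The order was read per nucleotide of the mature sequence of the 5′ arm, of 22 or 23 bases, although the deposited values do not separate the arms. The means not divided by length gave the same order in each group. In ESCs the authors' means per nucleotide were 473 for mir-16-1, 95.5 for mir-15b, 31.3 for mir-497, 16.8 for mir-322, 14.1 for mir-15a and 0.133 for mir-503. In NCs they were 560 for mir-16-1, 102 for mir-15b, 41.4 for mir-322, 20.7 for mir-497, 18.7 for mir-15a and 0.283 for mir-503. mir-322 and mir-497 thus changed places. The ranges of mir-322 and mir-15a overlapped in ESCs. Within ESC libraries A, B and C, mir-322 was higher (403, 432 and 272 against 364, 373 and 194 normalized counts). The ranges of mir-497 and mir-15a overlapped in NCs. There mir-497 was lower in libraries A and B (355 and 413 against 490 and 495) and higher in C (600 against 248). In NC libraries A and B mir-322 lay above mir-497 (976 and 1147 against 355 and 413). In NC library C they were nearly equal (607 against 600.2, from 355 and 351 reads). Counts of different miRNAs also depend on how well each is ligated and amplified, which was not measured. The members together, mir-16 counted once, made up 1.20% of the summed authors' means in ESCs and 1.02% in NCs. Their summed means were 13882 in ESCs and 16347 in NCs, and mir-10a took 0.185% of the ESC sum and 47.1% of the NC sum. Without mir-10a the members made up 1.21% in ESCs and 1.93% in NCs.

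In the X-linked cluster of mir-322 and mir-503, mir-351 differed between the groups in the deeper libraries and the genes farthest from mir-322 were not called. mir-351, 901 bases from mir-322, had 849, 742 and 4258 normalized counts in ESC libraries A, B and C and 1623, 2290 and 6788 in NC libraries A, B and C. Library C was several-fold above A and B in both groups. mir-351 was called higher in NCs in the 2 deeper libraries of each group (log2 FC 1.25 ± 0.16 SE, adjusted p-value 1.95e-05 in limma-voom) and with the library set as covariate (1.04 ± 0.17 SE, adjusted p-value 0.000746 in limma-voom), and not in all 6 libraries without the covariate (1.04 ± 0.80 SE, adjusted p-value 0.519 in limma-voom). mir-450a-1, mir-450a-2 and mir-450b, from 5887 to 6176 bases away, had log2 FCs of 0.21, 0.21 and 0.02 in the deeper libraries and were not called there (adjusted p-values from 0.304 to 0.923 in limma-voom). The 95% interval was -0.16 to 0.57 for mir-450a-1 and -0.26 to 0.29 for mir-450b. In the shallowest libraries these 3 had log2 differences of -0.46, -0.69 and -0.69, and in the fit of all 6 libraries log2 FCs of 0.05, 0.0046 and -0.27 with SEs from 0.52 to 0.88, so their direction turned with library C. mir-542, 4767 bases away, had 6 to 19 reads in a library. It passed the filter in the deeper libraries alone, where it was not called (log2 FC 0.08 ± 0.42 SE, adjusted p-value 0.878 in limma-voom).

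Of these 5 cluster genes 4 were tested and 0 were called in limma-voom on all 6 libraries, and 0 had an unadjusted p-value under 0.05 there. Over all tested miRNAs 15.7% were called in that fit. In the deeper libraries all 5 were tested and 1, mir-351, was called, where 50.2% of 327 tested miRNAs were called. mir-322 had 6.05, 6.33 and 8.76 reads for each read of mir-450a-1 in ESC libraries A, B and C and 12.3, 15.3 and 27.3 in NC libraries A, B and C, so the groups did not overlap. Over mir-450b the ratios were 0.460, 0.463 and 1.13 in ESC libraries A, B and C and 1.05, 1.29 and 4.08 in NC libraries A, B and C, and over mir-542 they were 43.5, 67.5 and 21.3 against 118, 124 and 44.4, and in both the groups overlapped through library C. mir-322 had 0.474, 0.582 and 0.0639 reads for each read of mir-351 in ESC libraries A, B and C and 0.601, 0.501 and 0.0894 in NC libraries A, B and C, and here they overlapped. These cluster ratios were chosen after the values were seen and were not tested.

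**Figure D5:**
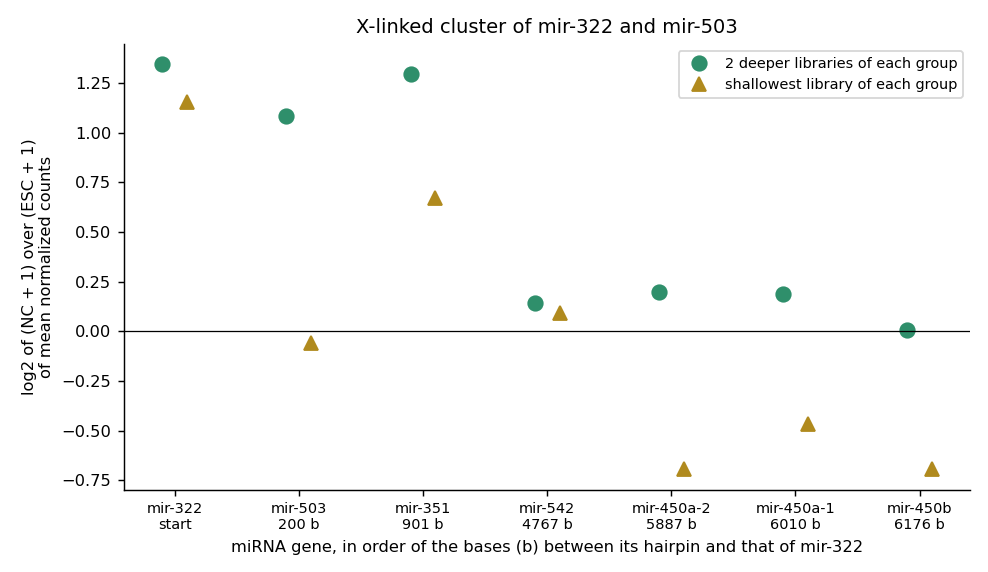
log2 difference, NC over ESC, of mean normalized counts with a pseudocount of 1 for the 7 genes of the X-linked cluster, in the 2 deeper libraries of each group (circles) and in the shallowest library of each group (triangles), ordered by distance from mir-322. In the deeper libraries mir-322, mir-503 and mir-351 lie between 1.09 and 1.34 and the other 4 between 0.01 and 0.20, and mir-503 rests on at most 27 reads in a library. In the shallowest libraries mir-322 lies at 1.15, mir-351 at 0.67, mir-542 at 0.09 and mir-503, with 1 read in each, at -0.06. The mir-450 genes lie there between -0.69 and -0.46.

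Beside mir-195a, other names related to the family added little signal. Of 9 names sought as further carriers of the seed the table held mir-195a and mir-497b. mir-497b had at most 1 read in any library and is not among the RefSeq mature names with the seed. mir-103-1, mir-103-2 and mir-107, in which the same bases begin 1 position earlier, had at most 7 reads in a library and did not pass the filter. Over the 6 libraries, mir-322 was most like mir-301a (Pearson's r = 0.990), mir-335 (r = 0.985) and mir-676 (r = 0.982) among 255 candidates. mir-16-1 was most like mir-872 (r = 0.976) and mir-15a most like mir-340 (r = 0.997), while mir-497 was most like mir-673 (r = 0.992) and mir-15b most like mir-350 (r = 0.975). These values describe 6 libraries, in which the deviation of library C is shared, and between members r ran from -0.95 for mir-15a and mir-497 to 0.95 for mir-15a and mir-16-1, the mir-16 copies aside.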

How the data were processed

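Small RNA was sequenced from 3 ESC and 3 NC samples of mouse E14Tg2a cells, grouped by sample title. The authors deposited 1 table with 2 signal columns, their group means of read counts divided by size factors. Per the labels the submitters used DESeq and genome build mm10. Adapter removal, aligner and counting rules are not given in the sources used here. The remaining columns of the authors' deposited table hold a mean over both groups and their own comparison (fold ratio, log2 fold change, p-value and adjusted p-value) and were not used. No column of single samples was present (0).

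Whole reads of each library were recovered from the 10-decimal means by enumeration up to a mean of 13000, for 536 of 549 detected miRNAs in ESCs and 584 of 602 in NCs. Deposited and rebuilt means differed by at most 5.21e-11. In simulated data 534 of 551 and 554 of 571 miRNAs were recovered and all of those were right. A count of 3 reads in each library corresponds to a mean of 3.51 in ESCs and 3.17 in NCs. The fit was limma 3.58.1 in R 4.3.3, with voom weights, for 613 miRNAs recovered in both groups, with those size factors and at least 10 reads in 3 libraries (2 where a group had 2), and p-values were adjusted by Benjamini-Hochberg over all tested miRNAs. Of 613 simulated miRNAs 200 were given 4-fold changes, and 105 of the 106 that were tested were called, and 1.87% of calls were false. The simulated libraries held no deviation of library C, and the changes were larger than that of mir-322. These rates therefore do not carry over to the real libraries. Ratios of the 8 pairs within libraries used a pseudocount of 0.5 read and exact two-sided permutation tests. The untested ratios of mir-322 to other genes of the X-linked cluster used reads without a pseudocount. Sequences were matched by symbol to RefSeq, which held mature forms for all 7 members. Python 3.11.15, numpy 2.4.6, pandas 2.3.3, scipy 1.17.1 and numba 0.67.0 were used. All members are named, with 3 lists of related miRNAs and the 3 most alike miRNAs. The members and lists were chosen with earlier results of these data known. Alternatives covered scaling, filters, the library set and left-out libraries.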

Additional observations from a re-analysis of the deposited data

How the results depend on the processing

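No paired analysis was possible because reads recovered from group means belong to no numbered replicate. The number of members called was 1 in all 6 libraries, and 0 at equal totals, with no filter on recovered reads, with at least 10 reads in every library and in limma-trend, 3 with the library set as covariate and 5 in the 2 deeper libraries of each group; leaving out 1 library gave 0 to 1. For all miRNAs the count was 50, 30 with at least 10 reads in every library, 142 with the covariate, 164 in the deeper libraries and 17 to 55 with 1 library left out; fewer miRNAs enter the first of these, and for the others the cause was not tested.

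mir-322 kept its direction in all of these settings (0.82 to 1.73) and lost its call in 9; beyond those given with its values, the adjusted p-values in limma-voom were 0.0881 with no filter and 0.0604 with at least 10 reads in every library, and 0.0543 in limma-trend. At equal totals the log2 FC reversed to -0.089 for mir-15a, -0.39 for mir-15b and -0.27 for mir-16-1 and mir-16-2, by the shift itself. With 1 library left out mir-15b ran from -0.070 (without ESC library B) to 0.27, below 0 also without NC library C, mir-16-1 ran from -0.0093 to 0.49 and mir-16-2 from -0.0091 to 0.49, both lowest without NC library B. In the shallowest libraries alone, a setting chosen after seeing the data, both mir-16 copies were at -0.043. Of the log2 ratios, mir-15b over mir-16-2 ran from -0.58 to 0.24 with 1 library left out, mir-497 over mir-195a from -0.72 to 0.72 and mir-15a over mir-15b from -0.17 to 0.79, each through 0, and mir-497 over mir-195a was 0.068 in the deeper libraries. The difference for mir-322 over mir-16-1 ran from 1.04 to 1.12. The median over members was 0.25, but -0.23 at equal totals and 0.69 once mir-10a was left out of those totals. It was 0.25 to 0.32 under the other scaling, filter, pseudocount, copy and floor settings. Few reads kept mir-503, mir-542 and the shifted-seed miRNAs out of the filtered fit of all 6 libraries.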
